A study of Mus musculus with 6 samples.

Results

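Genes that mark cells other than microglia, monocytes arriving from the blood and macrophages of the brain borders, were followed array by array in microglial RNA from mice with acute ischemic stroke (AIS). The 10 genes comprised 5 genes of monocytes (Ly6c2, Plac8, F13a1, F10 and Emilin2), 4 genes of border macrophages (Lyve1, Pf4, Stab1 and Cbr2) and Ms4a7, which both monocyte-derived and border macrophages carry. Every probe whose accession belonged to one of them was taken by name, with no threshold on its values, which gave 13 of the 56605 probes on the array and 10 of the 23462 named genes. All 13 probes were well above background on all 6 arrays, and all 13 passed the filter and entered the comparison. No probe of these genes was called between the genotypes, and for each of the 13 the arrays of at least 1 genotype spanned a wider range than the distance between the genotype means.

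The 3 control arrays held RNA of PGC-1αf/f mice, which carry a loxP-flanked allele of PGC-1α with an eGFP gene. The 3 mPGC-1α arrays held RNA of littermates that carried in addition a tamoxifen-inducible Cre driven by Cx3cr1 and were made to overexpress PGC-1α, a coactivator of mitochondrial genes, in microglia. All mice were labelled male, 10 weeks old and with AIS, brought about by transient blockage of the middle cerebral artery, and each array stood for 1 sample. The cells had been selected with magnetic beads against P2RY12, a surface receptor of microglia. Cx3cr1 is active in border macrophages and in some monocytes as well, so the Cre is not limited to microglia, although the study left an interval between tamoxifen and the stroke. The labels do not say whether a sample was 1 animal or a pool. If the samples were not separate animals, the p-values below measure technical spread only.

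Ly6C-high monocytes are released from the bone marrow, circulate in the blood and enter the brain after a stroke, where they turn into macrophages. Border-associated macrophages lie instead in the meninges, the choroid plexus and the spaces around vessels, where in part they renew themselves in place. Neither cell type is a microglial cell, although all of them are myeloid and share many genes, and a preparation of microglia from an injured brain can hold some of both. In RNA from a cell mixture, fewer cells of a type and less RNA per cell cannot be told apart.

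Levels are given as log2 of the processed signal of a probe after subtraction of the log2 75th percentile of its array, so that 0 is the level of that percentile. They compare the same probe between arrays and not one probe with another. Over all 40745 probes tested with limma, the median log2 difference (mPGC-1α minus control) was 0.08, and 0 probes had an adjusted p below 0.05 (0%, with 0.638 as the smallest). Without adjustment, 2921 probes (7.17%) had a p below 0.05. Ppargc1a, the gene meant to be overexpressed, was not higher in mPGC-1α arrays on its brighter probe (-1.02 ± 0.14 against -0.71 ± 0.29, SD, n = 3 each, limma adjusted p = 0.798). Nor was it on the other probe (log2 difference -0.41, limma adjusted p = 0.769). In other samples, the paper reported more PGC-1α mRNA by qRT-PCR in cultured microglia of newborn mPGC-1α mice. It also reported more PGC-1α by immunostaining of microglia. P2ry12 lay between 3.94 and 4.40 on all 6 arrays. Its spots on control arrays 1 and 2 and mPGC-1α array 3 were marked as outliers, so it was not tested. The median of 16 microglia genes lay between 4.11 and 4.31. Cx3cr1 was on 1 of its 2 probes 2.76 ± 0.39 in mPGC-1α and 3.99 ± 0.28 in control arrays without overlap (limma adjusted p = 0.684, and 0.015 with a difference of -1.39 without control array 2). The other Cx3cr1 probe, with 3 marked spots and therefore not tested, stood at 3.96, 4.41 and 3.75 on the control and at 3.57, 3.67 and 3.90 on the mPGC-1α arrays, which overlapped. By its name in the paper, the Cre strain carries a targeted allele of Cx3cr1 itself. Only the mPGC-1α mice carried that allele, and its part in the Cx3cr1 values was not tested. Although all mice were labelled male, Xist, which is transcribed in female cells, stood at -4.83 on control array 2 and between -0.57 and -0.11 on the other 5 arrays, and the Y-linked Eif2s3y stood on its brighter probe at -0.81 on control array 2 and at most at -6.01 on the others. In these genes control array 2 alone had the pattern of the male label, and the other 5 arrays had that of female cells. The control arrays thus mixed both patterns, the reason for which was not tested. Results are also given without control array 2. Control arrays 1 and 2 and mPGC-1α arrays 1 and 2 lay on 1 slide and the third array of each genotype on another.

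The monocyte genes were read first at Ly6c2, which encodes a part of the Ly6C surface antigen by which inflammatory monocytes are recognised. Ly6c2 stood at 4.05, 4.49 and 4.62 on control arrays 1, 2 and 3 and at 3.71, 4.93 and 4.82 on mPGC-1α arrays 1, 2 and 3. The last value came from a spot that the scanner software had marked as an outlier, so the test left it out. The lowest and the highest of the 6 values both belonged to mPGC-1α arrays, so the groups overlapped. The log2 difference was -0.07 ± 0.36 (SE, 95% interval -0.88 to 0.75, limma adjusted p = 0.974). Ly6c1, a neighbouring gene of the same family that endothelial cells express, followed Ly6c2 over the 6 arrays on both of its probes (r = 0.95 and 0.98), and one of them stood at 3.97, 4.39, 4.38, 3.62, 4.83 and 4.54. Probes of such close relatives may share signal, so the Ly6c2 values remain uncertain as values of that gene alone.

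The likeness of the pair extends to the bases before their start sites, which are shown for this reason. No probe or transcript sequences were compared, so this likeness says nothing about shared probe signal. In the RefSeq promoter table of build GRCm38.p6, the 250 bases upstream of 1 start site of each gene could be aligned over 138 positions, of which 108 (78.3%) were identical. This pair of start sites had the highest percentage, and the other pairs were 71.8% to 76.0% identical. The aligned length differed between pairs, and another pair had more identical bases (168 of 229, 73.4%). Capitals mark GAGGAAGT, a frequent form of the binding motif of PU.1, a transcription factor of monocytes and macrophages, searched on both strands with no other motif. The upstream sequence of Pf4, a border macrophage gene described further on, is shown beside them because it held the same letters on the opposite strand, where they read ACTTCCTC, 2 bases before the start site. All sequences are written 5′ to 3′ on the strand of the gene, Ly6c2 from chr15:75111938-75112187 on the minus strand, Ly6c1 from chr15:75048664-75048913 on the minus strand and Pf4 from chr5:90772185-90772434 on the plus strand.
Ly6c2: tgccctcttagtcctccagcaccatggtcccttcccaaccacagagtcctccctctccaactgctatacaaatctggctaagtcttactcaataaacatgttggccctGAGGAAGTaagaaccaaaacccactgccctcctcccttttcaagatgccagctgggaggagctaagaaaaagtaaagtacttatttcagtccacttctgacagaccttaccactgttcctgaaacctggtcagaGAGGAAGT
Ly6c1: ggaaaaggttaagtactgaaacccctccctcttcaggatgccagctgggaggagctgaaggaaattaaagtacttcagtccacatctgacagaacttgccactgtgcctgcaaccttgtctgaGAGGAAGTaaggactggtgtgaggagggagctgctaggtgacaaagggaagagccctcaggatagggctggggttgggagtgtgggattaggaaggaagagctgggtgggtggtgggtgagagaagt
Pf4: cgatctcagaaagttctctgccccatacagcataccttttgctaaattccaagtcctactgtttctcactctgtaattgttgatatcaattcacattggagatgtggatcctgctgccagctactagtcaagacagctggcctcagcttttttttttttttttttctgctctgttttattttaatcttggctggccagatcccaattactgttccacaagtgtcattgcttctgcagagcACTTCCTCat
The motif was held by 802 of 32851 upstream windows of that length in the table (2.44%), and Ly6c2 and Pf4 were the 2 of 9 member genes with a promoter in the table that had it in any of their 14 windows. The other Ly6c1 window in the table had no match. All matches are of letters and say nothing about binding.

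Plac8, a small protein of myeloid cells that is high in Ly6C-high monocytes, had the same order of arrays. It stood at 2.40, 2.73 and 3.33 on the control arrays and at 1.77, 3.77 and 3.48 on the mPGC-1α arrays, the last again from a marked spot. The spread within mPGC-1α, 2.00 from lowest to highest, covered all control values, and the log2 difference was -0.05 ± 0.53 (SE, 95% interval -1.27 to 1.17, limma adjusted p = 0.990).

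Emilin2, a protein of the extracellular matrix made by monocytes and other myeloid cells, stood at 2.14, 2.85 and 2.76 on the control and at 1.88, 3.37 and 2.72 on the mPGC-1α arrays. Again mPGC-1α array 1 was the lowest and mPGC-1α array 2 the highest, and the genotypes differed by 0.07 ± 0.36 (SE, 95% interval -0.73 to 0.88, limma adjusted p = 0.973).

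The remaining pair encodes coagulation factors, both of which are made by monocytes and macrophages. F10, coagulation factor X, stood at 1.38, 0.15 and 1.55 on the control arrays and at -0.56, 1.39 and 1.41 on the mPGC-1α arrays. Here 4 arrays lay close together, and control array 2 and mPGC-1α array 1 lay well below them. Between genotypes the difference was -0.28 ± 0.55 (SE, 95% interval -1.52 to 0.95, limma adjusted p = 0.925).

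F13a1, the catalytic subunit of coagulation factor XIII, is found in monocytes, in border macrophages and in platelets, and its 2 probes disagreed. The brighter probe stood at 1.60, 2.30 and 1.93 on the control arrays and at 0.66, 2.11 and 2.26 on the mPGC-1α arrays, with a log2 difference of -0.26 ± 0.40 (SE, 95% interval -1.16 to 0.64, limma adjusted p = 0.902). The dimmer probe stood at 0.93, -1.43 and 1.61 on the control arrays and at -3.23, -1.35 and -1.50 on the mPGC-1α arrays. It was thus high on control arrays 1 and 3 and low on the other 4, with control array 2 inside the range of mPGC-1α. Its log2 difference was -2.40 ± 0.75 (SE, 95% interval -4.09 to -0.71), which made it the 1 member probe of 13 with an unadjusted p below 0.05 (0.011), with a limma adjusted p of 0.684. An exact two-sided permutation test gave p = 0.2 (the smallest that 3 against 3 arrays allow is 0.1). Without control array 2 the difference of this probe was -3.30 ± 0.54 (SE, limma adjusted p = 0.013), in a fit where 2003 of 41143 probes (4.87%) were called lower, so that 1 of 13 member probes stood against a background of nearly the same share. A dim probe of Cd163, a scavenger receptor of border macrophages picked here after its values were seen, had the same pattern, at -0.34, -3.09 and -0.10 on the control and -3.52, -3.63 and -3.18 on the mPGC-1α arrays, while its brighter probe ran from -0.01 to 0.97 without such a step. In both genes the step between arrays was thus limited to 1 of 2 probes that carry the same accession.

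**Figure D1:**
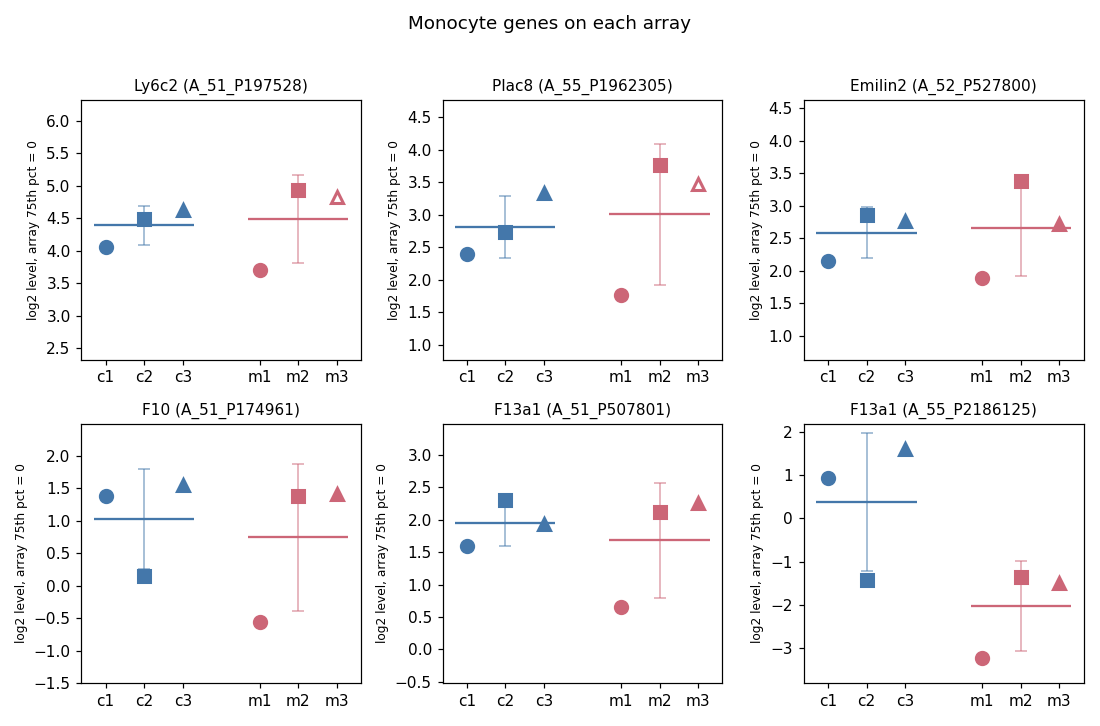
Log2 level (array 75th percentile = 0) of the 5 monocyte genes on control arrays c1 to c3 and mPGC-1α arrays m1 to m3, with both probes of F13a1. Each point is 1 array, open points are spots marked as outliers and left out of the test, horizontal lines are means and bars the SD of all 3 arrays. In all 6 panels m1 is the lowest array, and the dim F13a1 probe (A_55_P2186125) is high on c1 and c3 alone.

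All 5 monocyte genes were thus lowest on mPGC-1α array 1, where 2361 of the 18222 named genes tested (13%) had their lowest level. The monocyte members together had a median log2 difference of -0.07 (4 of 5 lower, 0 called, range -0.28 to 0.07), against 0.11 over all named genes. Leaving out mPGC-1α array 1, on which all 5 were lowest, had to raise each difference. In that fit the median of all named genes was 0.11. All 5 monocyte differences were then above 0 on the brightest probe: 0.55 for Ly6c2, 0.95 for Plac8, 0.46 for Emilin2, 0.37 for F10 and 0.25 for F13a1. None of these passed the limma test either, with adjusted p-values from 0.938 to 1.00 in that fit. Without mPGC-1α array 2, by contrast, their median was -0.60, so the direction of the monocyte genes depended on which mPGC-1α array was included. Marked spots mattered as well, because with them included Ly6c2 and Plac8 were 0.10 and 0.19 higher in mPGC-1α.

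Most other genes of monocytes were also lowest on that array. Of 24 such genes, all tested, 17 were lower and 7 higher with 0 called by limma and 0 at an unadjusted p below 0.05, and 18 had their lowest level on mPGC-1α array 1. Their median log2 difference was -0.20, and 0.30 without that array, where the median of all named genes was 0.11. The largest differences were those of Ear2, a ribonuclease of the eosinophil-associated family (2.47 ± 1.51 in mPGC-1α and 3.31 ± 0.90 in control arrays, SD, n = 3 each), of Thbs1, the matrix protein thrombospondin 1 (1.74 ± 0.82 and 1.01 ± 0.62, n = 2 each after marked spots were left out) and of Nr4a1, a nuclear receptor needed for patrolling monocytes (-0.12 ± 0.66, n = 3, and -0.77 ± 0.14, n = 2). Their limma adjusted p-values lay between 0.750 and 0.805.

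Neutrophil genes moved with the monocyte genes. Of 12 neutrophil genes 10 were lowest on mPGC-1α array 1, as against 2 of 16 microglia genes. The low level there was not limited to monocyte and neutrophil genes. Ms4a7, 2 of 4 border macrophage members and 12 of 24 other border macrophage genes were lowest on that array as well, against 13% of all named genes tested. The summed level of the neutrophil list lay between 8.03 and 8.51 on the control arrays and from 7.82 to 8.65 on those of mPGC-1α (log2 scale). Marked spots were included in these sums and in the counts of lowest arrays. Each of the 12 genes was well above background on some array, but only 8 passed the filter and were tested. Of these 4 were lower and 4 higher, with 0 called. Over the 6 arrays, the mean level of the 5 monocyte members was followed most closely by Msrb1, Camp, Pygl, Brpf1 and Pglyrp1 (r from 0.97 to 0.99), out of 6190 named genes that were measured on all arrays with a mean above 0. Camp and Pglyrp1 encode antimicrobial proteins of neutrophil granules. Camp stood at 4.15, 4.71 and 4.81 on the control and at 3.36, 5.04 and 4.79 on the mPGC-1α arrays, the order of arrays being nearly that of Ly6c2. All genes of an array share its RNA and its scaling, so these correlations are descriptions, and the part of neutrophil RNA in the values of the monocyte genes was not tested.

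**Figure D2:**
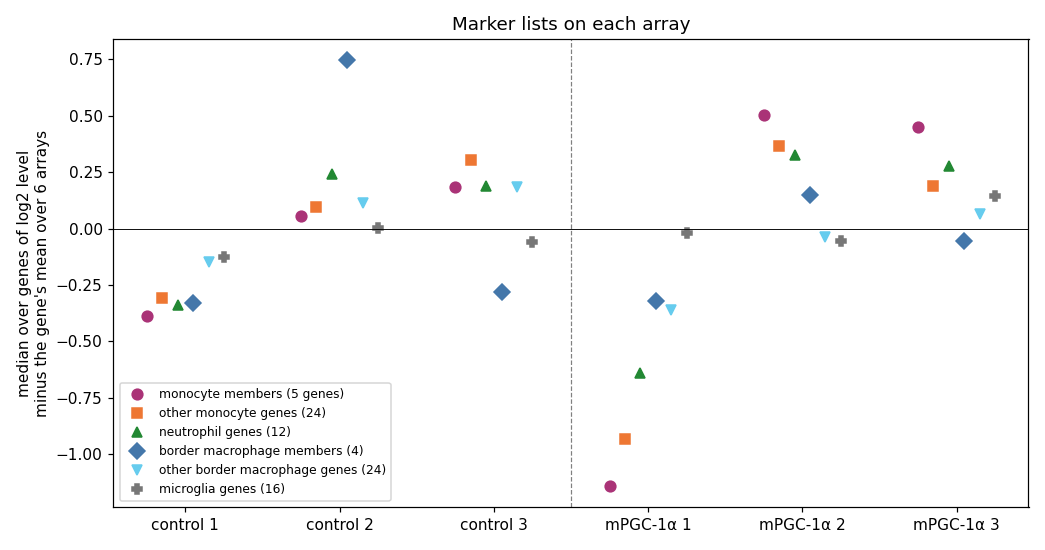
Median over the genes of each marker list of the log2 level minus the gene's own mean over the 6 arrays, for each array, with 1 point per list and array. Marked spots are included. The monocyte members, the other monocyte genes and the neutrophil genes are lowest on mPGC-1α array 1 (-1.14, -0.93 and -0.64). The other border macrophage genes are lowest there too (-0.36). The border macrophage members are highest on control array 2 (0.75), and the microglia genes stay between -0.13 and 0.14.

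Ms4a7, a membrane protein of the MS4A family found on monocyte-derived and border macrophages and hardly on resting microglia, was measured by 2 probes that ran together. The brighter stood at 0.01, 0.41 and 0.81 on the control and at -0.49, -0.40 and 0.44 on the mPGC-1α arrays, and the other at -0.36, 0.29 and 0.77 and at -0.80, -0.35 and 0.28. On the brighter probe, mPGC-1α arrays 1 and 2 lay below all control arrays and array 3 within their range. The log2 differences were -0.56 ± 0.31 and -0.52 ± 0.35 (SE), or 1.48-fold and 1.44-fold lower in mPGC-1α, with limma adjusted p-values of 0.740 and 0.772 and an exact permutation p of 0.3 for each. The 95% interval of the brighter probe ran from -1.26 to 0.14. By slide, mPGC-1α was lower by a log2 difference of -0.66 on the first and -0.37 on the second, and the value stayed below 0 without each array in turn (-0.86 to -0.36).

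Cbr2, a carbonyl reductase by which border macrophages differ from microglia, was the border macrophage gene with the largest difference. Its brighter probe stood at 0.01, 0.90 and 0.58 on the control and at -0.16, 0.15 and 0.17 on the mPGC-1α arrays. The mPGC-1α arrays were all below control arrays 2 and 3, and 2 of them lay above control array 1. The log2 difference was -0.44 ± 0.27 (SE, 95% interval -1.04 to 0.16, limma adjusted p = 0.752), and the other probe gave -0.56 ± 0.30 (SE, limma adjusted p = 0.731). By slide it was -0.46 on the first and -0.41 on the second, and it ranged from -0.69 to -0.24 when 1 array at a time was left out.

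Pf4, the chemokine CXCL4, is stored in platelets and is also made by border macrophages. It stood at 0.94, 2.23 and 1.06 on the control and at 0.76, 1.70 and 1.33 on the mPGC-1α arrays. Control array 2 was the highest of all, and the other values overlapped. Its log2 difference was -0.15 ± 0.37 (SE, 95% interval -0.98 to 0.68, limma adjusted p = 0.945), and it was 0.26 without control array 2. Of 10 further platelet and megakaryocyte genes 9 were tested, 3 of them lower and 6 higher with 0 called, and the summed level of that list lay between 2.03 and 2.32 on the control and from 2.17 to 2.48 on those of mPGC-1α.

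Lyve1, a hyaluronan receptor of perivascular macrophages and of lymphatic endothelium, stood at -1.08, 0.28 and -1.04 on the control and at -0.80, -0.48 and -0.44 on the mPGC-1α arrays. The mPGC-1α arrays lay between control array 2 above and control arrays 1 and 3 below. Between genotypes it differed by 0.04 ± 0.36 (SE, 95% interval -0.78 to 0.87, limma adjusted p = 0.986), and without control array 2 it was 0.49 ± 0.21 (SE, limma adjusted p = 0.225). The median level of 6 genes of lymphatic endothelium lay between -3.57 and -2.37 on the 6 arrays, and 1 of them never rose well above background.

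Stab1, the scavenger receptor stabilin-1 of macrophages and sinusoidal endothelium, is expressed by microglia as well and was the steadiest of the members. It stood at 3.88, 4.11 and 3.70 on the control and at 4.38, 4.17 and 3.69 on the mPGC-1α arrays, with the value of control array 3 from a marked spot. Unlike all other members it had its highest level on mPGC-1α array 1. The log2 difference was 0.08 ± 0.25 (SE, 95% interval -0.49 to 0.65, limma adjusted p = 0.953).

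**Figure D3:**
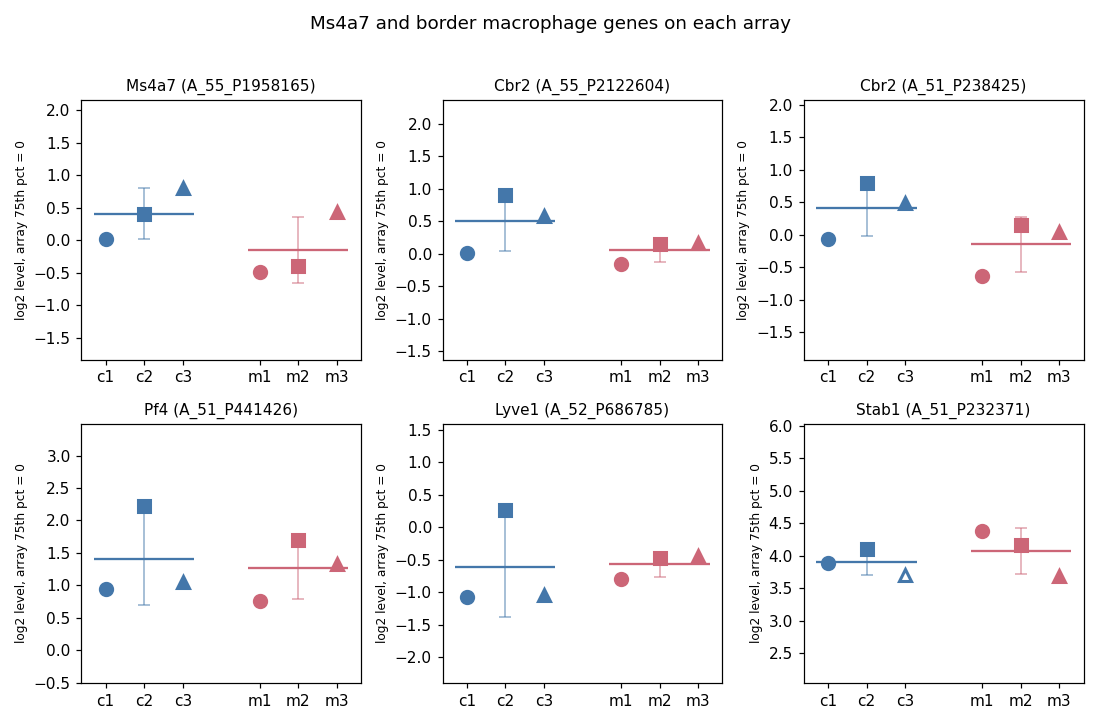
Log2 level (array 75th percentile = 0) of Ms4a7 (brighter probe) and the 4 border macrophage genes, with both probes of Cbr2, on control arrays c1 to c3 and mPGC-1α arrays m1 to m3. Each point is 1 array, the open point is a spot marked as an outlier and left out of the test, lines are means and bars the SD of all 3 arrays. Control array c2 is the highest of all for Cbr2, Pf4 and Lyve1, and m1 for Stab1.

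Control array 2 had the highest level of 3 of the 4 border macrophage genes, where 29.7% of all named genes tested had theirs. Their median log2 difference was -0.05 (2 lower, 2 higher, 0 called), and 0.23 without that array, where the median of all named genes was 0.22. Of 24 other border macrophage genes, all tested, 15 were lower and 9 higher with a median of -0.18 and 0 called, and 1 had an unadjusted p below 0.05. The largest differences were those of Clec4n, the fungal receptor dectin-2 (-2.69 ± 0.53 in mPGC-1α and -1.65 ± 0.40 in control arrays, SD, n = 3 each), of the chemokine Ccl8 (-0.11 ± 0.43 and 0.69 ± 1.28) and of Timd4, a receptor for dying cells (-5.76 ± 0.41 and -5.08 ± 0.62), with limma adjusted p-values from 0.684 to 0.772. The mean of the 4 border macrophage members was followed most closely by Gm10731, Rassf7, Dnlz, Sox9 and Bpifa1 (r from 0.98 to 0.99 over 6 arrays), none of them on the border macrophage lists and all of them highest on control array 2.

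Between each other, the monocyte members were more alike over the 6 arrays than the border macrophage members. Pearson's r ranged from 0.50 to 0.98 over the 10 pairs of monocyte genes (median 0.82), with Ly6c2 and Plac8 the closest. It ranged from -0.27 to 0.91 over the 6 pairs of border macrophage genes (median 0.43), where Lyve1 and Pf4 were the closest. Across the 20 pairs of a monocyte with a border macrophage gene it ranged from -0.79 to 0.74 (median 0.34). Stab1 correlated negatively with each monocyte gene (-0.79 to -0.20), and Ms4a7 had a median r of 0.40 with the monocyte genes (0.22 to 0.59) and of 0.14 with the border macrophage genes (-0.81 with Stab1 to 0.71 with Cbr2). These values rest on 6 arrays, whose genes share the RNA and scaling of each array, and are descriptions.

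**Figure D4:**
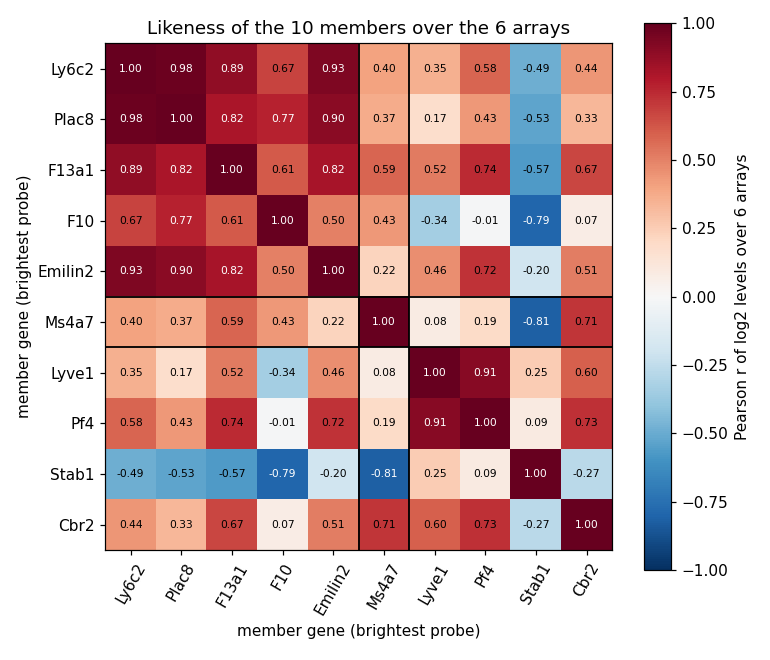
Pearson's r of the log2 levels over the 6 arrays for each pair of the 10 genes (brightest probe, marked spots included), with black lines between monocyte genes, Ms4a7 and border macrophage genes. The monocyte block runs from 0.50 to 0.98, and Stab1 is negative with all 5 monocyte genes.

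None of the 13 probes had groups without overlap (0 of 13, of which 10 were measured on all 6 arrays), where 4240 of the 36995 probes measured on all 6 arrays (11.5%) had such groups in either direction. Of the 10 genes 7 were lower and 3 higher in mPGC-1α (median -0.11), while 36.0% of all named genes were lower. The 95% intervals of the 10 brightest probes reached down to -1.52 (F10) and up to 1.17 (Plac8), so that changes of about 2-fold in either direction could not be told from 0 for several of them. Among lists of other brain cells, 9 of 10 neuron, 10 of 10 oligodendrocyte and 9 of 9 tested astrocyte genes had higher means in mPGC-1α (median log2 differences 0.91, 0.87 and 0.97), with 0 called. Without control array 2 limma called 1 neuron, 3 oligodendrocyte and 0 astrocyte genes, at medians of 1.10, 1.07 and 0.80. Of all 41143 probes tested in that fit, 128 were called higher and 2003 lower in mPGC-1α. The summed level of the oligodendrocyte list lay between 4.07 and 4.65 on the control and from 4.92 to 5.47 on those of mPGC-1α. As each level is relative to the whole RNA of its array, this bears on every difference given above, and its part in them was not tested.

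**Figure D5:**
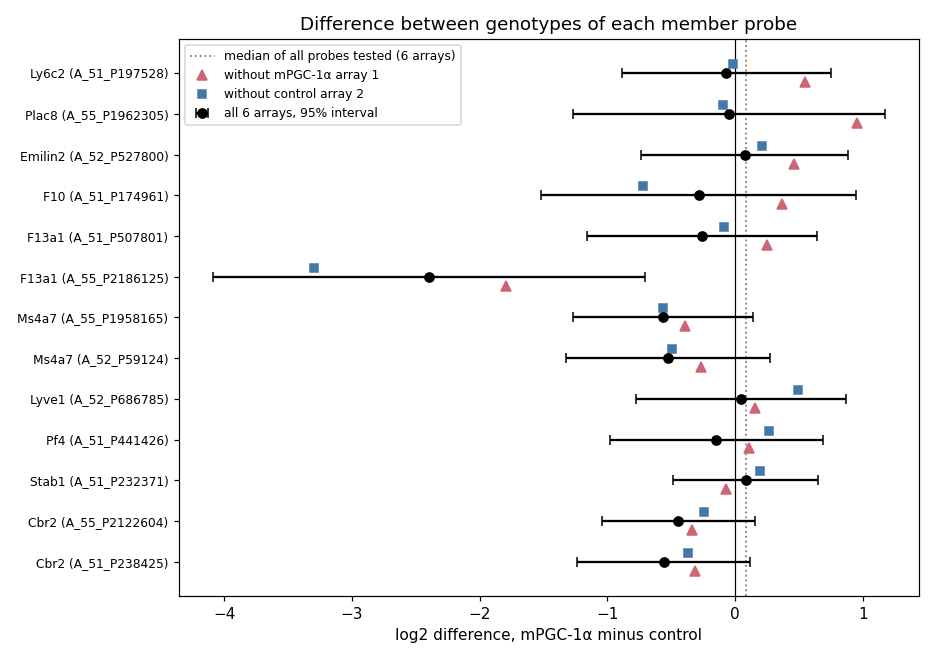
Log2 difference (mPGC-1α minus control) of the 13 member probes with its 95% interval over all 6 arrays (black), without mPGC-1α array 1 (triangles) and without control array 2 (squares). The dotted line is the median of all probes tested (0.08). The monocyte genes move above 0 without mPGC-1α array 1 on their brightest probes, and the dim F13a1 probe is the 1 interval that excludes 0 (unadjusted).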

How the data were processed

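The deposited scanner files hold linear intensity values per spot, made by the authors with Agilent Feature Extraction 11.5.1.1. They are background-subtracted within each array and not normalized between arrays. The deposited series matrix holds the authors' between-array normalized log2 values, on the same scale in every column (medians 7.78 to 7.79), and served as an alternative. The labels name Cy3 and the protocol Cy5, and the 1 green channel was used.

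In R 4.3.3, log2 processed signal minus the array's 75th percentile over all 56605 probes was computed. Spots marked as outliers were left out of the tests. Probes well above background on all unmarked arrays (at least 2) of a group, with at least 2 values per group, were tested in limma 3.58.1 (lmFit, eBayes with trend, two-sided) adjusted after Benjamini-Hochberg across the probes tested (threshold 0.05), and exact permutation tests over the arrays were run on single probes. The procedure was tested on simulated data. For genes with several probes the brightest was used for counts. Array accessions matched RefSeq (GRCm38.p6) for 33767 probes (59.7%).

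The members and marker lists were chosen with earlier results of these data known. All member probes, the check genes, Ly6c1, the 3 largest differences per list and the 5 genes most like each member group were to be named. The 3 largest are given only for other monocyte and other border macrophage genes, and further lists as counts or levels. Of 8 endothelial genes tested 6 were higher and 2 lower in mPGC-1α, and of 7 fibroblast genes 4 were higher and 3 lower. Among 10 genes common to leukocytes or myeloid cells 7 were higher and 3 lower. In each of these lists 0 were called. Signal over background ranged from 71.0% to 86.5% of spots per array, and 3 arrays per group limit the precision. The lowest shares were those of the second slide, 73.5% on control array 3 and 71.0% on mPGC-1α array 3, against 83.5% or more on the first. These arrays also had 3010 and 4931 marked spots, against 549 to 1094 on the first slide. Every marked spot of a member lay on the second slide.

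Same-numbered arrays deviated together (r = 0.25, 0.22 and 0.17 across probes), although no label says what the replicate numbers stand for. The main fit compared the genotypes without pairing the arrays, and the replicate block was run as an alternative only. Alternatives were other normalizations, filters and blocks, averaging the probes of a gene, and left-out arrays.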

Additional observations from a re-analysis of the deposited data

How the results depend on the processing

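No monocyte or border macrophage member was called on its brightest probe under any alternative run. The count of probes called over the whole array was 0, and it was 1 with the replicate block, 0 to 2131 when 1 array at a time was left out (2131 when control array 2 was dropped and 8 for mPGC-1α array 2), 2190 without control array 2 with marked spots kept, and 1720 with the replicate block when the 75th percentile was taken over unmarked spots only, which are different probes on each array. The last 2 settings and those named with them below were added after the data were seen. Apart from that whole-array count and the dim F13a1 probe, the replicate block changed no call.

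The dim F13a1 probe was called in 3 settings, without control array 2 (-3.30, limma adjusted p = 0.013, and 0.012 with marked spots kept) and with the percentile over unmarked spots and the replicate block (-2.32, limma adjusted p = 4.4e-06). Over the whole array, 2131 of 41143, 2190 of 41485 and 1720 of 40745 probes were called in these settings, so the probe was 1 of many. Elsewhere its adjusted p ranged from 0.140, with the replicate block alone, to 1.00, and its difference stayed below 0 throughout.

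The median difference of the monocyte members ranged from -0.60 (without mPGC-1α array 2) to 0.46 (without mPGC-1α array 1, also with marked spots kept), and that of the border macrophage members from -0.28 to 0.23 with 1 array left out. With 1 array left out the differences ranged from -0.68 to 0.55 for Ly6c2, from -1.05 to 0.95 for Plac8, from -0.28 to 0.46 for Emilin2, from -0.72 to 0.37 for F10, from -0.55 to 0.25 for F13a1, from -0.38 to 0.26 for Pf4, from -0.19 to 0.49 for Lyve1 and from -0.0676 to 0.28 for Stab1. F13a1 was at -1.33 ± 0.50 (SE, limma adjusted p = 0.726) when its 2 probes were averaged in place of taking the brighter. Ms4a7 and Cbr2 kept their direction in each alternative.

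Other changes of direction were of differences that were not called in either setting. Ly6c2 was at 0.10 with marked spots kept, 0.0486 with the slide or the replicate block and 0.0367 with the percentile over unmarked spots and the replicate block. Plac8 was at 0.19 with marked spots kept, 0.21 with the slide or the replicate block, 0.20 with the percentile over unmarked spots and the replicate block, 0.0559 in the authors' series matrix and 0.0343 with quantile normalization and the replicate block. Emilin2 was at -0.0403 with quantile normalization, with or without the replicate block, -0.0641 with normexp and -0.0314 in the series matrix. Lyve1 was at -0.0056 with normexp, and Stab1 at -0.13 with quantile normalization and -0.11 with normexp. With marked spots kept and without mPGC-1α array 1, values were 0.49 for Ly6c2, 0.80 for Plac8, 0.37 for F10, 0.25 for F13a1 and 0.11 for Pf4. Without control array 2 they were 0.15 for Ly6c2, 0.14 for Plac8 and 0.26 for Pf4. The cause of these changes was not tested. A fit with 1 array left out assumes that probes with a single remaining value in a group vary like the rest. In the filter that asked for all 6 arrays, Ly6c2, Plac8 and Stab1 had no value because of marked spots.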
